A study of Mus musculus with 4 samples.

Results

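The genes described here encode 31 subunits of the receptors for glutamate and GABA, out of 32285 genes listed in each library. They were chosen by symbol: 4 AMPA, 6 NMDA, 5 kainate, 1 delta and 6 metabotropic glutamate receptor genes, and 9 GABA-A receptor genes. Their transcripts were followed in brain sections of mice with and without an endothelial deletion of Pdcd10, in whole sections and in spots assigned to cortex, hippocampus and subcortical regions.

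Glutamate opens AMPA, NMDA and kainate receptors, which are cation channels built of several subunits, and it also acts on metabotropic receptors, which signal through G proteins. GABA opens GABA-A receptors, chloride channels whose alpha, beta, gamma and delta subunits set where on the neuron the channel sits and how sensitive it is. Subunit makeup differs between brain regions and changes with age and activity, so a shift between subunits alters how synapses respond.

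The libraries are 10x Visium spatial transcriptomes of fresh-frozen mouse brain, cut at 10 µm, in which RNA is captured on barcoded spots that can each cover several cells or parts of cells. The 2 control libraries come from Pdcd10fl/fl mice, which carry the floxed gene without Cre. The 2 knockout libraries come from Slco1c1-iCreERT2;Pdcd10fl/fl littermates, in which the Slco1c1 promoter drives a tamoxifen-dependent Cre in brain endothelium. Loss of Pdcd10, also named Ccm3, from endothelium causes cerebral cavernous malformations. For both groups the labels describe 50 µg of 4-hydroxytamoxifen on postnatal day 1 and brains studied on day 65. The treatment label reads Normoxia for controls and Hypoxia for knockouts and a protocol names 12% oxygen for 2 days, while titles and design text place every sample in normoxia. If that treatment label holds, oxygen and genotype cannot be told apart. The labels do not say whether the libraries of 1 group are from different mice, and the p-values therefore describe the spread among these libraries, which may be technical.

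The files held 50148764 to 74467027 UMIs (unique molecular identifiers, each standing for 1 captured RNA molecule) per library. Spots with at least 1000 UMIs were used, 2931 to 4599 per library, with a median of 8158 to 16226.5 UMIs per spot. All 4 libraries list the same 4992 barcodes, which are those of the slide. Pdcd10 itself stood at 90.9, 82.3, 80.3 and 83.0 CPM in control 1, control 2, knockout 1 and knockout 2, and did not pass the test (adjusted p = 0.410, edgeR). Sections pool all cell types, so these counts do not check the genotype labels. Throughout, CPM means UMIs per 1000000 UMIs of the summed spots after scaling by TMM, log2 fold changes are knockout over control, and 4 values in a row follow the order just given.

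In whole sections 15 of the 31 subunit genes fell in the knockouts and 2 rose, Grik4 and Gabrb2, taking as called an adjusted p below 0.05 (quasi-likelihood test of edgeR, Benjamini-Hochberg). Over all 17546 genes tested, 20.1% were higher and 18.3% were lower by the same rule. The median log2 change of the subunit genes was -0.30, against -0.00082 over all genes, and 24 of 31 were negative. These levels are shares of the summed UMIs. A lower share can mean fewer cells of a type, less of the RNA per cell or more of other transcripts, which cannot be told apart here. Summed over the 31 genes, the level was 2391, 2421, 2182 and 2330 CPM without TMM, so both knockouts lay below both controls. The falls were spread over families: 2 of 4 AMPA, 3 of 6 NMDA, 3 of 5 kainate, 3 of 6 metabotropic and 4 of 9 GABA-A genes. The delta receptor gene Grid1 did not pass (22.1, 27.3, 21.3 and 21.9 CPM).

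With library totals in place of TMM, the share of calls that were higher went from 52.4% to 65.5% over all genes, and the subunit counts became 3 higher and 11 lower. With equal numbers of spots from every region list in each library, all thinned to 1000 UMIs, 7 subunit genes were lower and 1 was higher, where 10.0% and 10.7% of 12371 genes were. The 2 rising genes became 1 without knockout 2 and 5 without control 2.

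**Figure D1:**
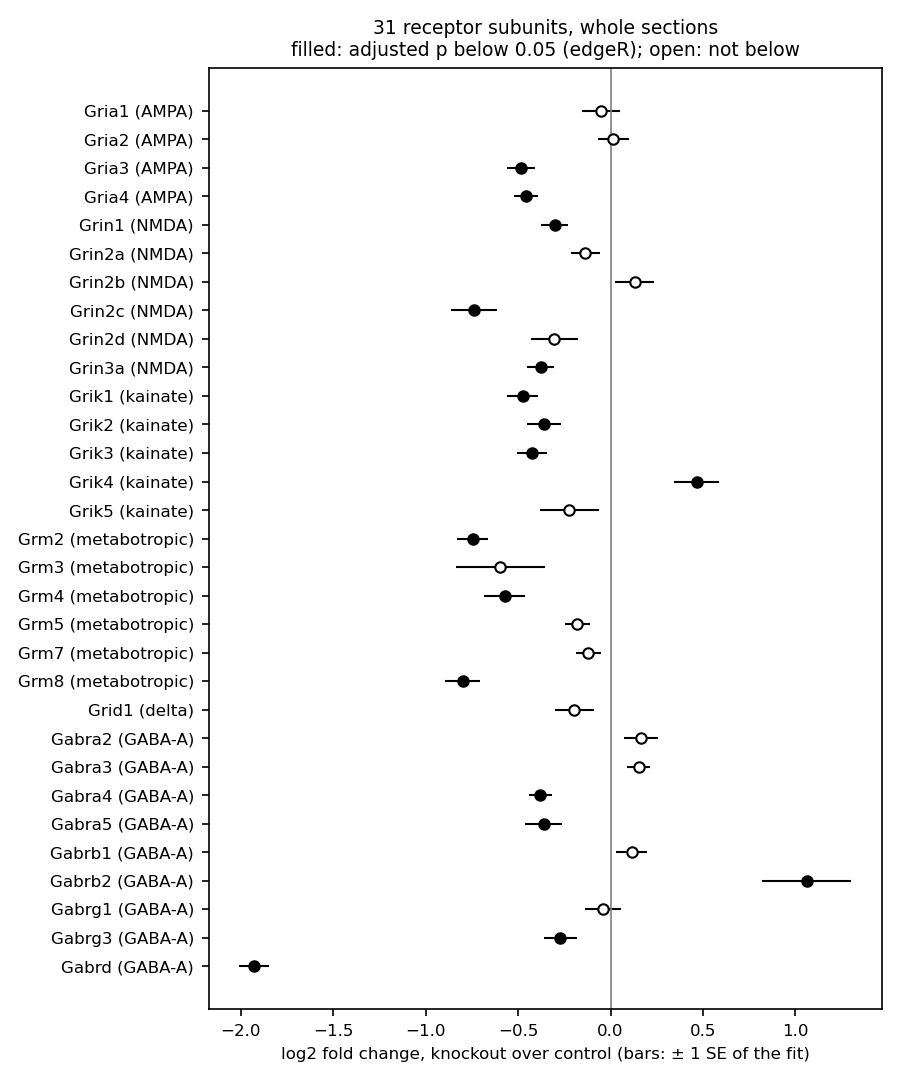
Log2 fold change of each of the 31 subunit genes in whole sections, knockout over control, 2 libraries a group. Bars show 1 standard error of the edgeR fit, and filled points have an adjusted p below 0.05. Gabrd lies farthest left at -1.93 and Gabrb2 farthest right at 1.06.

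Spots were also grouped by the marker list with the highest score. Cortical spots numbered 794, 894, 1073 and 1080, hippocampal spots 320, 364, 644 and 792, and subcortical spots 652, 1039, 1609 and 1501. Both knockouts thus had more spots than both controls in all 3 regions. These scores were z scores over the spots of all 4 libraries. With z scores within each library, cortical spots made up 26.4%, 25.6%, 23.1% and 23.2% of kept spots, lower in both knockouts. Hippocampal spots then made up 12.5%, 11.6%, 11.8% and 14.7% and subcortical spots 25.0%, 29.8%, 31.9% and 28.9%, both with overlap. Subcortical spots are those of the striatum, thalamus, hypothalamus or midbrain and hindbrain lists. In cortical spots 14 subunit genes fell and 2 rose, where 19.3% of 15398 genes were lower and 20.4% were higher. In hippocampal spots 12 fell and 2 rose, against 14.4% and 15.6% of 13951 genes. In subcortical spots 11 fell and none rose, against 10.4% and 11.6% of 15532 genes. The median log2 change of the 31 genes was -0.23, -0.33 and -0.30 in the 3 regions. Gabra4, Gabrd, Gria3, Grik2 and Grin2c fell in all 3 regions and in whole sections, and 18 genes fell in at least 1 region. The subcortical sum pools lists in which some of these genes were not lower, as given below. Of 13898 genes tested in all 3 regions, 5.54% fell in all 3 and 26.9% in at least 1, against 16.1% and 58.1% of the subunit genes. The call of Grik2 had an adjusted p of 0.0895 without control 1 and 0.153 without knockout 1 in hippocampal spots, and of 0.0941 without knockout 1 in subcortical spots. Without control 1 the subcortical calls numbered 18 in place of 11. All 31 genes passed the filter on low counts in these 4 fits. When every spot was thinned to 1000 UMIs, which left 29, 24 and 30 of them in the cortical, hippocampal and subcortical fits, the share of genes called in either direction was 13.9%, 7.79% and 9.61%. Calls then remained for Gria3, Grin1, Grin2c, Grm2 and Gabrd in cortical, for Grin1, Gabrb2 and Gabrd in hippocampal and for Gabrd in subcortical spots.

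Region names rest on expression alone, since spot positions were not analysed here. The cortical spots had more Slc17a7, the main vesicular glutamate transporter of cortex (984 to 1410.3 CPM without TMM), than the subcortical spots (482 to 701), while Slc17a6, its counterpart in thalamus and brainstem, ran the other way (19.8 to 40.2 against 120 to 151). The lists within the subcortical spots did not all follow this order. Spots of the striatum list held 1060, 897, 1135 and 969 CPM of Slc17a7, near the cortical level, and those of the hypothalamus list held 439, 373, 879.95 and 767 CPM. In the subcortical spots the median depth was 11808, 2976, 8116 and 14644 UMIs, so control 2 was shallow there. In the cortical spots it was 21822, 21654.5, 10947 and 14548.5 UMIs, lower in both knockouts. In the hippocampal spots it was 16975, 22083.5, 6360.5 and 11841.5 UMIs, also lower in both knockouts.

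**Figure D2:**
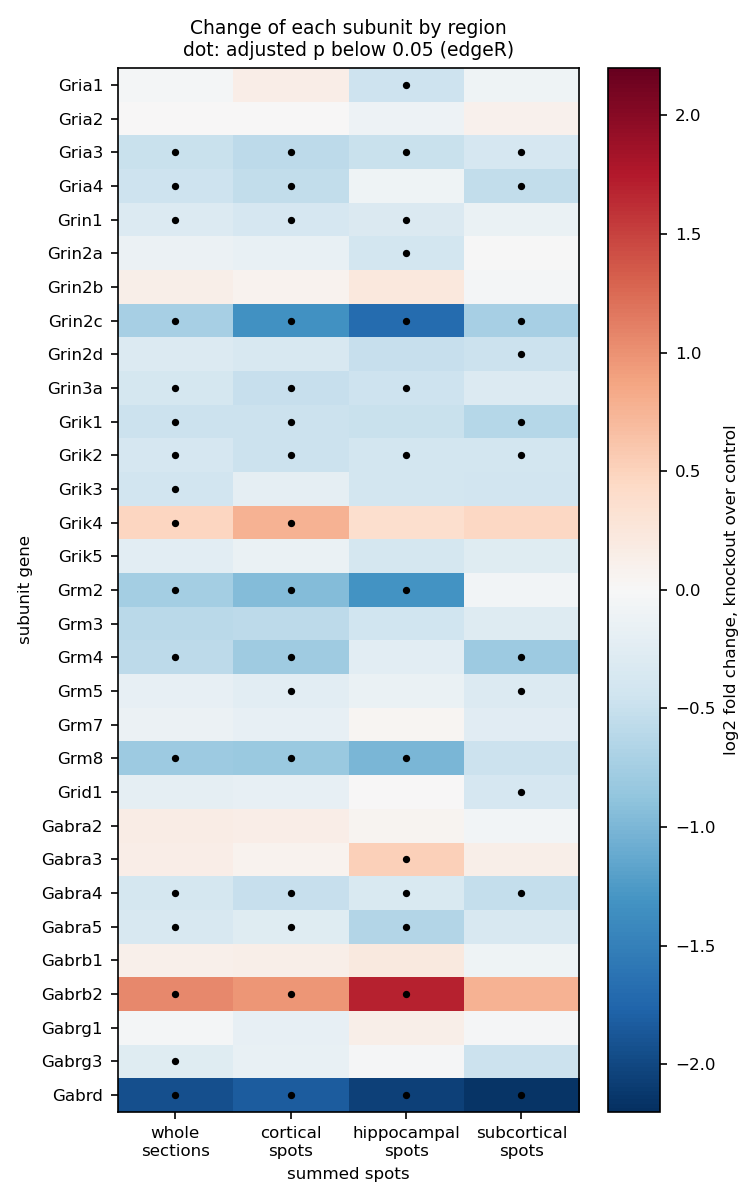
Log2 fold change, knockout over control, of the 31 subunit genes (vertical axis) in whole sections and in cortical, hippocampal and subcortical spots (horizontal axis). Blue is lower, red is higher, and dots mark an adjusted p below 0.05. Gabrd is lower in all 4 columns, and Gria1 carries a dot in hippocampal spots only.

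Among the AMPA receptor genes, which encode the channels of fast excitatory transmission, Gria3 and Gria4 fell while Gria1 and Gria2 did not pass. Gria3 stood at 164, 158, 110.2 and 120.4 CPM in whole sections. Both knockouts were below both controls (log2 fold change -0.48, SE 0.075, adjusted p = 0.00292). For Gria4 the levels were 40.1, 42.2, 29.9 and 30.0 CPM, again without overlap (-0.46, SE 0.066, adjusted p = 0.00214). Gria2, whose subunit makes the channel impermeable to calcium, lay at 398, 394, 379.8 and 420.3 CPM, with overlapping groups. Gria1 overlapped too, at 215, 249.9, 209 and 239 CPM.

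Gria1 and Gria4 were called in different regions. In hippocampal spots Gria1 was at 480.4, 544, 338 and 411 CPM, and it fell (-0.45, SE 0.12, adjusted p = 0.0165). In cortical spots the same gene was at 196, 219, 221 and 239 CPM and did not pass. Without knockout 1 the hippocampal change was -0.32 and its adjusted p was 0.185. Gria4 fell in cortical spots (45.0, 45.2, 28.0 and 33.5 CPM) and in subcortical spots (41.7, 47.2, 32.5 and 29.2 CPM). In hippocampal spots Gria4 overlapped between groups, at 22.2, 32.0, 23.4 and 27.2 CPM, but its change did not differ between regions by test (adjusted p = 0.0705 for cortical against hippocampal and 0.933 for cortical against subcortical spots). Gria3 fell in each region, by 0.57 in cortical, 0.48 in hippocampal and 0.37 in subcortical spots on the log2 scale. The subcortical fall of Gria3 had an adjusted p of 0.126 without knockout 1 and 0.0865 without knockout 2. It was -0.20 (adjusted p = 0.145) with z scores taken within each library and -0.25 (adjusted p = 0.109) where the list had to lead by at least 0.2.

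NMDA receptors pair the obligatory subunit encoded by Grin1 with regulatory subunits from the other Grin genes, and Grin2c, Grin3a and Grin1 fell in whole sections. Grin2c, a subunit gene of thalamus, cerebellum and astrocytes, was at 23.9, 27.5, 17.2 and 13.7 CPM (log2 fold change -0.74, SE 0.12, adjusted p = 0.00389). Grin3a, whose subunit lowers calcium entry, was at 40.1, 44.1, 32.4 and 32.4 CPM (-0.38, adjusted p = 0.00648). Grin1 was at 342, 353, 285 and 278 CPM (-0.30, adjusted p = 0.0163), and without knockout 1 or knockout 2 its adjusted p was 0.105 or 0.157. Grin1, Grin2c and Grin3a showed no overlap between groups. Grin2a, Grin2b and Grin2d did not pass, with log2 fold changes of -0.14, 0.13 and -0.30.

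By region, Grin2c fell in each. In cortical spots it was at 20.1, 21.5, 9.82 and 6.82 CPM (log2 fold change -1.34, SE 0.16, adjusted p = 0.000165). In hippocampal spots it was at 22.7, 33.0, 8.93 and 8.57 CPM (-1.68, SE 0.20, adjusted p = 8.4e-05). In subcortical spots it was at 28.8, 32.9, 21.1 and 16.5 CPM (-0.73, adjusted p = 0.00869). Every knockout sum lay below every control sum of its region. Grin2a, the subunit gene that rises as synapses mature, fell in hippocampal spots only among the 3 regions (252, 253, 181 and 202 CPM, -0.40, adjusted p = 0.0119), and without knockout 1 this had an adjusted p of 0.134. Cortical spots held 155, 172, 140 and 153 CPM of Grin2a. Its change did not differ between cortical and hippocampal spots by the edgeR test (adjusted p = 0.0580). Grin2b, the gene of the subunit prominent in young synapses, was at 126, 166, 169 and 172 CPM in hippocampal spots and did not pass. Grin2d fell in subcortical spots (21.7, 26.6, 19.0 and 16.3 CPM, -0.47, adjusted p = 0.0400), with an adjusted p of 0.151 without control 2 and 0.139 without knockout 2.

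Kainate receptor genes moved in both directions: Grik1, Grik2 and Grik3 fell in whole sections and Grik4 rose, while Grik5 did not pass. Grik1 to Grik3 encode subunits that form channels by themselves, and Grik4 and Grik5 encode high-affinity subunits that need such a partner. Grik1 was at 17.2, 16.8, 12.7 and 11.7 CPM (-0.48, adjusted p = 0.00492). Grik3 was at 34.1, 38.8, 27.7 and 26.6 CPM (-0.43, adjusted p = 0.00663). Grik2 was at 34.8, 30.8, 23.9 and 27.0 CPM (-0.36, adjusted p = 0.0194), and without knockout 1 its adjusted p was 0.0861. Grik1, Grik2 and Grik3 were lower in each knockout than in each control. With equal spots per region list their changes were -0.18, -0.20 and -0.27, and Grik2 was at -0.061 with spots thinned to 1000 UMIs, none of them passing.

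Grik4 ran the other way, at 13.96, 17.0, 19.7 and 23.0 CPM in whole sections (log2 fold change 0.47, SE 0.12, adjusted p = 0.0203). Without knockout 2 the change was 0.35 with an adjusted p of 0.0645. The separation was wider in cortical spots, where Grik4 was at 11.3, 12.8, 20.1 and 20.6 CPM (0.76, SE 0.11, adjusted p = 0.000671). In subcortical spots it was at 10.4, 14.7, 16.7 and 17.9 CPM and did not pass (0.45, adjusted p = 0.0781). Hippocampal spots held 26.2, 30.7, 31.1 and 41.7 CPM of Grik4, which did not pass either (0.38, adjusted p = 0.0805). By the edgeR test the cortical change of Grik4 did not differ from the subcortical (adjusted p = 0.280) or the hippocampal (adjusted p = 0.123). Grik5 overlapped in every sum, for example at 143, 101, 113 and 95.1 CPM in whole sections.

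Of the metabotropic receptor genes, Grm2, Grm8 and Grm4 fell in whole sections and Grm3, Grm5 and Grm7 did not pass. Grm2, Grm4 and Grm8 belong to the classes of metabotropic receptor that mostly restrain release from nerve endings. Grm2 was at 39.7, 39.3, 25.2 and 21.9 CPM (log2 fold change -0.75, SE 0.082, adjusted p = 0.000704). Grm8 was at 14.2, 14.6, 8.77 and 7.82 CPM (-0.80, SE 0.096, adjusted p = 0.000982). Grm4 was at 16.9, 18.6, 13.0 and 10.9 CPM (-0.57, adjusted p = 0.00648), and with equal spots per region list its change was -0.28 (adjusted p = 0.491). In these 3 genes the controls lay close together and the knockouts lay apart from them. Grm5, the main receptor of its class at excitatory synapses of the forebrain, was at 129, 133, 114 and 117 CPM (-0.18, adjusted p = 0.0698). Grm3, shared by astrocytes and neurons, overlapped at 6.24, 10.2, 6.34 and 4.67 CPM.

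By region, Grm2 fell in cortical spots (48.1, 49.6, 26.4 and 24.1 CPM, -0.96, adjusted p = 3.78e-05). It fell also in hippocampal spots (63.9, 71.4, 33.0 and 23.4 CPM, -1.31, adjusted p = 6.55e-05), though with every spot thinned to 1000 UMIs this was -0.59 with an adjusted p of 0.380. In subcortical spots Grm2 overlapped between groups, at 28.4, 25.9, 28.3 and 23.8 CPM. These spots pool lists in which Grm2 moved in opposite directions, as given below. Grm4 was called in a different set of regions. It fell in cortical spots (15.7, 16.4, 9.61 and 9.13 CPM, -0.78) and in subcortical spots (24.4, 27.0, 15.5 and 14.3 CPM, -0.79, adjusted p = 0.00266). Thinned to 1000 UMIs a spot, these falls were -0.24 and -0.43 and did not pass (adjusted p 0.800 and 0.447). In hippocampal spots Grm4 overlapped, at 4.51, 10.8, 8.59 and 5.34 CPM. By the edgeR test the cortical change of Grm4 did not differ from the subcortical (adjusted p = 0.997) or the hippocampal (adjusted p = 0.327). Grm8 fell in cortical spots (19.2, 19.3, 11.0 and 11.0 CPM) and in hippocampal spots (7.57, 10.5, 5.67 and 3.84 CPM). The hippocampal call of Grm8 had an adjusted p of 0.132 without control 2 and 0.175 without knockout 2.

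Promoter windows of Grm2, Grin2c and Grik4 are shown because these 3 genes carried the largest regional falls and the clearest rise among the glutamate receptor genes that RefSeq windows covered. Each window runs from 250 bases before to 50 bases after a start site listed for the gene on GRCm38.p6, which need not be the end of the gene model. The letters are printed 5′ to 3′ on the gene's strand, with capitals marking GGGCGG (the GC box) on either strand. The Grm2 window lies at chr9:106656060-106656359, that of Grin2c at chr11:115267194-115267493 and that of Grik4 at chr9:42944322-42944621, all on the minus strand. Their gene models begin, on that strand, at 106656109, 115267297 and 42945000. The Grik4 window thus lies wholly inside its gene model, and the start used for Grin2c also lies inside its model.
Grm2: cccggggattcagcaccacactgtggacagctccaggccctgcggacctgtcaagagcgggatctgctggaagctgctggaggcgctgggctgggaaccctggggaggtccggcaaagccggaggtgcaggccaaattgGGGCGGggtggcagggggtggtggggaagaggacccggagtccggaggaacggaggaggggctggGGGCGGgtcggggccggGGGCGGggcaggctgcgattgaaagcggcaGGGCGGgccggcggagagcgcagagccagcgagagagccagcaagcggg
Grin2c: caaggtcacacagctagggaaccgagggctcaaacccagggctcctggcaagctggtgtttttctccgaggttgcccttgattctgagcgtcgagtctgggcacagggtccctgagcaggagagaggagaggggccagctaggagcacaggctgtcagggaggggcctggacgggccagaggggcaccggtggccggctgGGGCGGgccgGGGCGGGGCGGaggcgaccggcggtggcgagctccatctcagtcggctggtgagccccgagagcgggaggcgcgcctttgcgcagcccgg
Grik4: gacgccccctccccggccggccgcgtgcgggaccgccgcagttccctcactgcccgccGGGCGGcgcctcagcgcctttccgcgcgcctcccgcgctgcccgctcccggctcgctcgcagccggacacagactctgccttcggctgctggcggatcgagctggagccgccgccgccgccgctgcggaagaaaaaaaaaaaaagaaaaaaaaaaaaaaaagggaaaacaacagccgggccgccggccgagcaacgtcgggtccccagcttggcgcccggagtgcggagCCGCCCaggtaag
The windows hold 22, 22 and 42 CpG dinucleotides at 72%, 70% and 70% GC, in the order Grm2, Grin2c and Grik4. Over all 32851 windows of the table the medians were 7 CpG and 52.7% GC, and over the 28 windows found for 21 of the 31 subunit genes they were 12.5 CpG and 60.8% GC. The other genes were Gabrd, Gria1, Gria3, Grin2a, Grin2b, Grin3a, Grik1, Grid1, Grm4 and Grm5. GGGCGG occurred in 35.7% of all windows and in 14 of the 28. TGACGTCA (the CRE, bound by CREB) occurred in 1.79% of all windows and in none of the 28, and GCGTGGGCG (the EGR motif) in 0.612% and in none. CACGTG (an E-box) occurred in 7.15% and in 1 of the 28, and TATAAA in 13.6% and in 3. Both strands were searched, and an EGR motif followed by G would also hold a GC box. The falling Grm2 and Grin2c and the rising Grik4 thus share GC-rich windows with GC boxes, and a match is a description of letters only.

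GABA-A receptor genes held the largest fall and the largest rise of all 31 genes. Gabrd encodes the delta subunit, which sits outside synapses and carries tonic inhibition in granule cells of dentate gyrus, in thalamus and in cortex, and its gene spans chr4:155384979-155398098. In whole sections it was at 33.9, 33.6, 9.22 and 8.54 CPM, so the knockouts held 3.81-fold less than the controls (log2 fold change -1.93, SE 0.079, adjusted p = 9.99e-06). Gabra4, whose subunit often joins delta in such channels, was at 68.5, 67.2, 51.6 and 52.7 CPM (-0.38, SE 0.064, adjusted p = 0.00396). The change of Gabra4 was -0.15 (adjusted p = 0.368) with spots thinned to 1000 UMIs and -0.31 (adjusted p = 0.113) with equal spots per region list. Gabra5, an alpha subunit gene of hippocampal tonic inhibition, was at 80.3, 81.6, 56.6 and 69.4 CPM (-0.36, adjusted p = 0.0266). Without knockout 1 the change of Gabra5 was -0.22 with an adjusted p of 0.186, and with equal spots per region list it was 0.018 with an adjusted p of 0.956. Gabrg3 was at 15.5, 16.6, 13.97 and 12.7 CPM (-0.27, adjusted p = 0.0492) and was lost without control 2, without knockout 1 or without knockout 2 (adjusted p 0.126, 0.0598 and 0.287).

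Gabrb2, a beta subunit gene of common synaptic GABA-A receptors, rose in whole sections, where it was at 2.23, 3.32, 6.99 and 4.77 CPM (log2 fold change 1.06, SE 0.24, adjusted p = 0.0128). These levels rest on 109, 204, 377 and 367 UMIs. Gabra2, Gabra3, Gabrb1 and Gabrg1 did not pass, with log2 fold changes of 0.16, 0.15, 0.11 and -0.040. Gabrg1, Gabra2, Gabra4 and Gabrb1 lie in 1 cluster on chromosome 5, within 1399 kb. The Gabra4 and Gabrb1 gene models overlap by 388 bases, and how reads in that overlap were counted is not given in the sources used here.

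Gabrd was lower in every knockout sum of each region. Cortical spots held 51.4, 50.5, 13.99 and 14.6 CPM (-1.83, SE 0.09, adjusted p = 5.24e-07). Hippocampal spots held 40.7, 38.6, 12.4 and 7.90 CPM (-2.05, SE 0.18, adjusted p = 1.07e-05). Subcortical spots held 27.7, 35.5, 7.40 and 6.80 CPM (-2.16, SE 0.15, adjusted p = 7.72e-05). Gabra4 fell alongside it, by 0.51 in cortical, 0.33 in hippocampal and 0.53 in subcortical spots on the log2 scale. Without knockout 2 the hippocampal fall of Gabra4 had an adjusted p of 0.288. The control levels of Gabrd lay within a narrow range in cortical and in hippocampal spots.

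Gabrb2 rose in cortical spots (2.69, 3.36, 6.15 and 5.69 CPM, 0.96, SE 0.21, adjusted p = 0.00512). In hippocampal spots the levels were 2.58, 4.20, 14.3 and 8.87 CPM, a larger rise (1.69, SE 0.32, adjusted p = 0.00234). The change of Gabrb2 did not differ between cortical and hippocampal spots by the edgeR test (-0.72, adjusted p = 0.201). In subcortical spots they were 2.04, 3.42, 6.16 and 3.44 CPM, and the test did not pass (0.76, adjusted p = 0.169). Knockout 2 was level with control 2 in the subcortical spots. Gabra3 rose in hippocampal spots, from 31.7 and 31.1 CPM to 50.0 and 41.7 CPM (0.53, SE 0.12, adjusted p = 0.00806), and it was -0.038 there when each spot was thinned to 1000 UMIs. Gabra5 fell in hippocampal spots (161, 151, 71.4 and 124 CPM, -0.65, adjusted p = 0.0212), where knockout 1 lay far below knockout 2. Without knockout 1 that change was -0.33 with an adjusted p of 0.115.

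**Figure D3:**
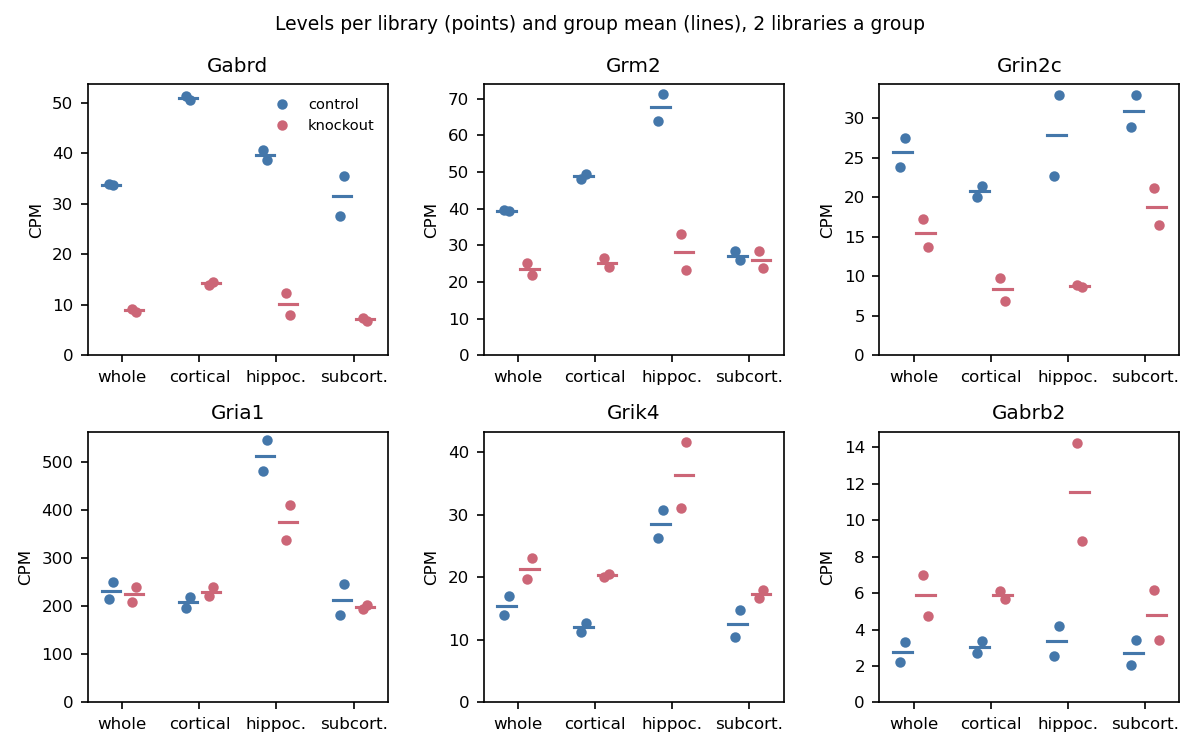
CPM of 6 subunit genes per library (points) and group mean (lines) in whole sections and in cortical, hippocampal and subcortical spots, 2 libraries a group, on linear axes from 0. Gabrd is lower in both knockouts in all 4 sums, and Grm2 overlaps between groups in subcortical spots.

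Differences between regions were tested as the interaction of genotype with region, with the library as a block. Against subcortical spots, 3 subunit genes had a more negative change in cortical spots, where 10.7% of 16093 genes differed in either direction, so the 31 genes (9.68%) were near that share. In the same test 5 of the 16 pan-neuronal genes differed, all with the more negative change in cortical spots. For Grm2 the difference of the log2 changes was -0.91 (SE 0.11, adjusted p = 0.000122), and it passed without each library in turn. For Grin2c it was -0.63 (SE 0.14, adjusted p = 0.00888), with an adjusted p of 0.0622 without control 1 and 0.0632 without knockout 2. Grin1 differed by -0.24 (adjusted p = 0.0419), with an adjusted p of 0.229, 0.232 and 0.176 without control 1, control 2 and knockout 1. For Gabrd the same difference was 0.31 and did not pass (adjusted p = 0.230). Without control 1 the count of 3 became 1.

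Against hippocampal spots, 2 subunit genes had a different change in cortical spots, where 9.62% of 15452 genes differed in either direction, again no larger a share. Of the 16 pan-neuronal genes 8 differed, all with the more negative change in cortical spots. For Gria1 the cortical change exceeded the hippocampal by 0.61 (SE 0.079, adjusted p = 1.28e-05), and this passed without each library in turn. For Gabra3 the difference was -0.43 (SE 0.13, adjusted p = 0.0336), with an adjusted p of 0.177 without control 2 and 0.271 without knockout 1. Without knockout 2 the count of 2 became 4. The interaction of Grm2 between these regions was 0.36 and did not pass (adjusted p = 0.0743).

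Within the subcortical spots the lists differed, as levels given here without a test. Gabrd was at 68.2, 71.6, 7.82 and 12.5 CPM in spots of the thalamus list and at 35.0, 38.7, 12.6 and 10.3 CPM in those of the striatum list. In spots of the hypothalamus list it was at 11.8, 15.6, 4.93 and 5.31 CPM. It overlapped in those of the midbrain and hindbrain list, at 2.92, 5.10, 3.31 and 2.21 CPM. The thalamus list thus held the highest control levels and the widest gap between groups.

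Other subunit genes that fell showed wide gaps in the thalamus list too. Grin2c was at 71.9, 63.1, 19.4 and 21.2 CPM there, Grm4 was at 79.2, 61.1, 25.3 and 26.0 CPM, and Gabra4 was at 126, 128, 64.8 and 52.8 CPM. Grin2c, Grm4, Gabra4 and Grik2 were lower in both knockouts in the striatum list too. In the hypothalamus list Gabra4 was higher in both knockouts (34.2, 39.4, 47.9 and 48.8 CPM). In the midbrain and hindbrain list Grm4 (8.03, 10.2, 14.6 and 18.6 CPM) and Grik2 (21.2, 18.2, 23.1 and 26.9 CPM) were higher in both knockouts. Grin2c overlapped in both of these lists. Grm2 was lower in both knockouts in spots of the thalamus list, at 45.1, 29.1, 23.5 and 23.9 CPM. The same held in spots of the striatum list, at 38.4, 51.0, 25.3 and 15.2 CPM. In spots of the midbrain and hindbrain list Grm2 ran the other way, at 13.1, 11.7, 31.9 and 40.1 CPM. In those of the hypothalamus list it overlapped, at 18.1, 15.9, 29.9 and 17.2 CPM. These levels stand beside the overlap of Grm2 in the subcortical sum. Other transcripts differed between groups in the same spots. In spots of the thalamus list Slc17a6 was at 341, 256, 151 and 189 CPM and Gad1, the gene of a GABA-making enzyme, was at 132, 183, 329.8 and 309 CPM, without TMM. The part of this shift in the subunit levels was not tested. Other sums took equal spots per subcortical list, each thinned to 1000 UMIs, which balances the lists but not the spots within a list. In those smaller sums 27 of the 31 genes passed the filter, Gabrd not among them, and 7.79% of 9053 genes were called but no subunit gene. The changes there were -1.40 for Grin2c, -0.85 for Gria4 and -0.48 for Gria3, against -0.73, -0.53 and -0.37 in the full subcortical sums. Those of Grm4 and Grm5 shrank, to -0.51 against -0.79 and to 0.012 against -0.31. Over all alternative runs of the subcortical sums, the change ran from -0.67 to -0.022 for Grin2d. It ran from -0.45 to -0.13 for Grik2 and from -0.61 to -0.30 for Gabra4.

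Shifts between subunits were described as ratios of UMIs in the same library, since 2 against 2 libraries allow no two-sided exact p below 0.33. The ratio of Grin2a to Grin2b, which rises as synapses mature, was 1.44, 1.21, 1.05 and 1.13 in whole sections. In hippocampal spots it was 2.01, 1.53, 1.07 and 1.18, lower in both knockouts. In cortical spots it was 1.29, 1.09, 1.01 and 0.989, also without overlap. In subcortical spots it was 1.07, 1.07, 1.05 and 1.15, with overlap. The ratio of Gria1 to Gria2 was 0.775, 0.896, 0.619 and 0.704 in hippocampal spots, lower in both knockouts. In cortical spots that ratio was 0.386, 0.429, 0.451 and 0.443, higher in both knockouts by little. In subcortical spots it was 0.605, 0.723, 0.582 and 0.589, lower in both knockouts, and in whole sections it overlapped (0.539, 0.635, 0.5502 and 0.5695).

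Among the GABA-A genes, the ratio of Gabra2 to Gabra5 was 1.37, 1.57, 2.26 and 2.003 in whole sections, higher in both knockouts, and the groups lay apart in all 3 regions as well. The ratio of Gabrb2 to Gabrb1 was 0.0289, 0.0369, 0.0781 and 0.0522 in whole sections, and it too lay apart in every region. The ratio of Gria4 to Gria3 overlapped in whole sections at 0.244, 0.266, 0.272 and 0.2495, and in cortical spots. It was higher in both knockouts in hippocampal spots (0.116, 0.166, 0.171 and 0.196) and lower in subcortical spots (0.329, 0.353, 0.326 and 0.287), with control and knockout values close together.

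**Figure D4:**
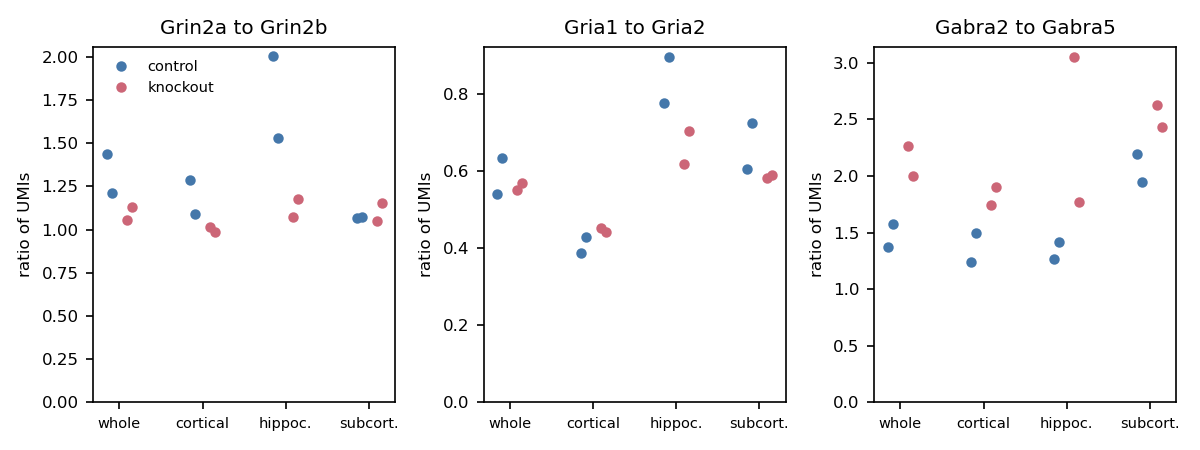
Ratios of UMIs between 3 pairs of subunit genes per library in whole sections and in cortical, hippocampal and subcortical spots, with axes from 0. The Grin2a to Grin2b ratio of hippocampal spots is 2.01 and 1.53 in controls, against 1.07 and 1.18 in knockouts.

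Cortical spots within the 2 knockout sections were then compared by their share of reactive astrocyte transcripts, a list of 18 genes. The 25% of spots richest in them were set against the 25% poorest, 188 and 217 spots each in knockout 1 and knockout 2, with the library as a block. Of the subunit genes 4 were higher and 7 were lower in the rich spots, against 17.1% and 13.8% of 12969 genes. Values follow the order poor and rich in knockout 1, then poor and rich in knockout 2.

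Grm3 was at 4.14, 10.8, 2.53 and 11.4 CPM, higher in the rich spots of both sections (log2 fold change 1.78, SE 0.32, adjusted p = 5.4e-07). Grik3 was at 35.7, 45.4, 40.2 and 70.8 CPM (0.64, adjusted p = 1.7e-06). Gabrg3 and Grik4 were also higher, by 0.62 and 0.57 on the log2 scale. Gabra2 was at 160.1, 114, 177 and 116 CPM, lower in the rich spots (-0.56, SE 0.077, adjusted p = 7.62e-12). Gria3 was at 168, 128, 216 and 145 CPM (-0.49, adjusted p = 3.22e-10), and Grin3a was at 33.1, 20.003, 42.8 and 23.7 CPM (-0.80, adjusted p = 4.17e-06). Gabrg1, Gabra3, Grin1 and Gria2 were lower by between 0.19 and 0.64 on the log2 scale. Gabrd was at 12.0, 15.4, 11.5 and 15.2 CPM and did not pass (adjusted p = 0.191).

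The rich spots differed in more than astrocyte transcripts, and the part of these differences in the subunit results was not tested. Their 16 pan-neuronal genes summed to 9041 against 12106 CPM (without TMM) in knockout 1 and to 9455 against 12633 in knockout 2. The 10 oligodendrocyte genes summed to 2681 against 1008 and to 2662 against 753. The median depth was 11005 against 21019.5 UMIs and 12961 against 23931. When every spot was thinned to 5000 UMIs, the 11 calls became 3, of Gria3, Gabra2 and Gabra3, and Grm3 was left out by the filter.

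**Figure D5:**
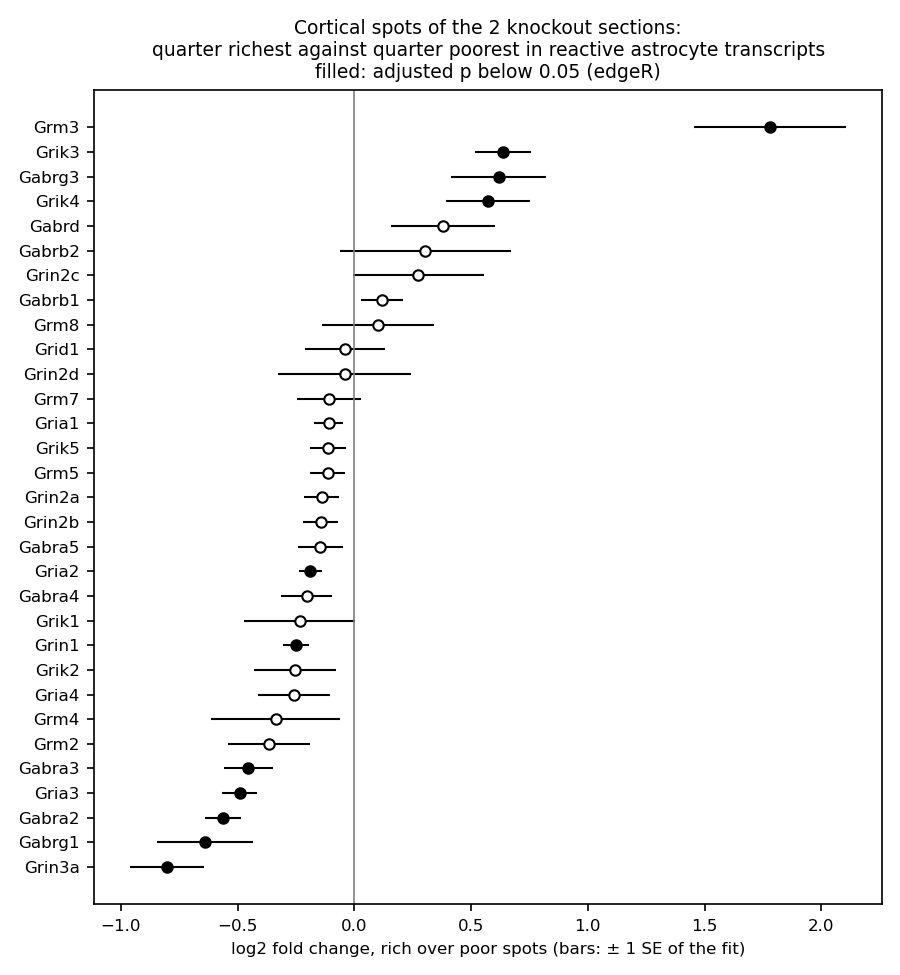
Log2 fold change of the 31 subunit genes between cortical spots rich and poor in reactive astrocyte transcripts within the 2 knockout sections. Bars show 1 standard error of the edgeR fit and filled points have an adjusted p below 0.05. Grm3 lies farthest right at 1.78 and Grin3a farthest left at -0.80.

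Partner genes of the receptors come from lists that also cover the synapse around them. Of these lists, the glutamate receptor partners were near the background of whole sections. Of 35 glutamate receptor partners, which anchor, traffic or cluster the channels, 6 rose (17.1%) and 8 fell (22.9%), against 20.1% and 18.3% of all genes. Nptx2, which gathers AMPA receptors, rose by 0.85 on the log2 scale (adjusted p = 0.000137), while Cacng3, an AMPA receptor auxiliary subunit gene, fell by 0.89 (adjusted p = 0.000166). Homer1, a scaffold gene of metabotropic receptors that also has an activity-induced short form, fell by 0.62 (adjusted p = 0.000611). Of 18 GABA synapse genes none rose and 4 fell (22.2%), with a median log2 change of -0.14 and 14 negative. Among the falls were Slc32a1, the vesicular GABA transporter gene (-0.52, adjusted p = 0.00677), and the chloride transporter genes Slc12a2 (-0.50, adjusted p = 0.0116) and Slc12a5 (-0.36, adjusted p = 0.0137). Of 9 genes of glutamate release and uptake, 3 rose (33.3%) and 1 fell (11.1%). The risers were Slc1a3 (0.62) and Glul (0.95), which act in astrocytes, and Slc17a7 (0.34).

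Other transcripts moved with the groups, and their part in the subunit results was not tested except as stated. The sums of lists in this paragraph are CPM without TMM. Of 16 pan-neuronal genes none rose and 4 fell, with a median log2 change of 0.0035, and their sum was 10280, 9297, 9953 and 10559 CPM without TMM, overlapping between groups. With those genes as the scale, 2 subunit genes were higher and 14 lower. In cortical spots 7 of the 16 pan-neuronal genes fell (43.8%) and 1 rose, with a median of -0.096, beside 14 of 31 subunit genes (45.2%). All 12 immediate early genes, which mark recent neuronal activity, fell (1207 and 1065 CPM in controls against 313 and 302 CPM in knockouts). All 10 oligodendrocyte genes fell (8772 and 12296 against 5275 and 3854). All 18 reactive astrocyte genes rose (259 and 257 against 1746 and 1706), and 8 of 10 endothelial genes rose (169 and 172 against 395 and 372). Of 6 pituitary genes, whose products are hormones of a gland beneath the brain, 5 were tested and fell, and the 6 together summed to 217 and 85.5 against 6.84 and 6.97. The white matter list, which holds the same 10 genes as the oligodendrocyte list, took 30.6% and 36.0% of spots in the controls. In the knockouts it took 13.7% and 13.1%. With z scores taken within each library its shares were 25.6%, 21.5%, 21.3% and 21.8%, with overlap. The gap in spots is thus not separate from the fall of these genes. In cortical spots pituitary transcripts summed to at most 13.8 CPM, and 9 of the 10 oligodendrocyte genes fell. In subcortical spots pituitary transcripts summed to 869, 308, 7.502 and 8.08 CPM, and in hippocampal spots to 49.4, 26.1, 6.31 and 5.999 CPM. The subcortical control sums thus held pituitary transcripts that were nearly absent from the knockout sums. The part of this difference in the subcortical falls of subunit genes was not tested.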

How the data were processed

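The authors deposited unnormalized UMI counts for each gene and spot barcode. The build (mm10) and the tool (Space Ranger) are named in the submitters' processing notes, and Cell Ranger 4 is the software per the file headers. Its annotation release is not given in the sources used. Kept spots held 98.6% to 99.5% of UMIs. The members and lists, the named genes (the members past the threshold and the largest rises and falls per region, with up to 3 genes per other list) and the tests were chosen with earlier results of these data known, and the hippocampal interaction and the crossed pairing were added after seeing the data.

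For regions, spots were scaled to 10000 UMIs, log transformed and z scored over all kept spots, and each spot went to the highest of 8 marker lists if its mean z was above 0. The lists hold no subunit gene. Sums of counts by library went into edgeR 4.0.16 under R 4.3.3 (TMM factors 0.988, 0.962, 1.01 and 1.04, filterByExpr, quasi-likelihood test, Benjamini-Hochberg adjustment over all genes, threshold 0.05), with limma 3.58.1 loaded, and DESeq2 1.42.0 as an alternative. Each standard error is the size of the fitted log2 change divided by the root of its F statistic. On simulated data for whole sections with 17546 genes, 100 genes were changed by 1 and 100 by 2 (log2). Of these, 85% and 96% were recovered, with 29 false calls among the unchanged genes. Far fewer genes were changed there than were called in the data. UMI counts of replicates differed beyond sampling noise in both groups (chi-square per degree of freedom 55.3 in controls and 16.9 in knockouts). Promoter windows came from RefSeq. Python 3.11.15 was used with pandas 2.3.3, numpy 2.4.6, matplotlib 3.10.9 and scipy 1.17.1.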

Additional observations from a re-analysis of the deposited data

Results flagged for a closer look

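The changes of 5 subunit genes differed between regions by the test of genotype with region: 3 of 31 between cortical and subcortical spots, where 10.7% of all genes differed, and 2 of 31 between cortical and hippocampal spots, where 9.62% did. These shares are not above those of all genes. The cortical minus the subcortical log2 change was -0.91 for Grm2, -0.63 for Grin2c and -0.24 for Grin1. The subcortical spots pool lists in which Grm2 moved in opposite directions. The cortical minus the hippocampal log2 change was 0.61 for Gria1 and -0.43 for Gabra3. The calls of Grm2 and Gria1 held without each library in turn, while those of Grin2c, Grin1 and Gabra3 did not.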

How the results depend on the processing

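In whole sections, 207 of 238 values of the 17 called subunit genes kept direction and call over the alternatives, 30 lost the call and 1 changed sign. The 7 genes Gabrb2, Gabrd, Gria3, Gria4, Grin2c, Grin3a and Grm2 kept both in every alternative run. With equal spots per region list, 1 gene rose and 7 fell, and Gabra5 was at 0.018. Thinning every spot to 1000 UMIs, which lowers the counts, gave 4 rising and 8 falling in whole sections, 5 calls in cortical, 3 in hippocampal and 1 in subcortical spots. In those thinned sums Grik1 was at 0.38, Grik2 at 0.12 and Gabra5 at 0.12 in cortical spots, and Gabra3 at -0.038 in hippocampal spots. DESeq2 gave 8 calls in hippocampal and 7 in subcortical spots. With equal spots per subcortical list, in sums small enough that 4 of the 31 genes fell below the filter, 0 subunit genes passed in subcortical spots. Grin2c was at -1.40, Gria4 at -0.85, Gria3 at -0.48 and Grm5 at 0.012 there. Thinning to 5000 UMIs left 3 calls between rich and poor spots.

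Leaving out each library in turn gave 1 to 5 rising genes in whole sections (1 without knockout 2, 5 without control 2) and 10 to 18 calls in subcortical spots (18 without control 1). It gave 1 to 4 genes for cortical against subcortical and 2 to 4 for cortical against hippocampal change. The cause of these moves was not tested. With the replicate block, 2 genes rose and 14 fell in whole sections, and there were 17, 14 and 8 calls in cortical, hippocampal and subcortical spots. Same-numbered libraries deviated with r = -0.118 across 17546 genes, which are not independent, and the crossed pairing gave 2 rising and 17 falling genes. With 2 libraries a group, low UMI counts such as those of Gabrb2 and Grm3 limit the precision.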
